A study of Mus musculus with 186 samples.

Results

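Counts of 10 genes of the transforming growth factor beta (TGF-beta) and bone morphogenetic protein (BMP) pathway were examined in single cells of the adult mouse mammary gland, to see which epithelial population held each ligand and receptor and in how many cells. The ligand genes were Tgfb1, Tgfb2, Tgfb3, Bmp4, Bmp7 and Inhbb, and the receptor genes were Tgfbr1, Tgfbr2, Tgfbr3 and Bmpr1a. They were listed by name and matched through Entrez identifiers to mouse symbols, 10 of the 27179 genes in the count files, and all 10 passed the filter on low values. The cells came from untreated adult FVB/NJ mice, 8 in all, and were sorted as basal (Lin- CD29hi CD24+, 96 cells) or luminal (Lin- CD29lo CD24+, 90 cells), where Lin- cells lack Ter119, CD31 and CD45. Full-length cDNA was made from each in a chamber of its own on a Fluidigm C1 chip. The labels name a PCR plate but no mouse for a cell. Plate A held basal cells alone, plate C luminal cells alone, and plate B some of each. Cells are not replicates, so each population counted as 1 sample, no difference between them has a replicate check, and no p-value was computed.

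Ligands of this family are secreted dimers that bring together type II and type I serine/threonine kinase receptors. The type I receptor then phosphorylates SMAD proteins, which move to the nucleus and change transcription. TGF-beta ligands are secreted in a latent form and restrain ductal growth in the mammary gland, whereas BMPs act through other type I receptors and have roles from the embryonic mammary bud onwards. The outer layer of a duct is made of contractile basal cells and the inner lining of luminal cells.

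After the study's thresholds on reads and genes, 72 basal cells (50 on plate A, 22 on plate B) and 76 luminal cells (24 on plate B, 52 on plate C) remained. Reads per passing cell ranged from 69933 to 3226961. At an equal 50000 reads, the median number of genes detected was 2902 (plate A) and 1567 (plate B) for basal and 3195.5 (plate B) and 3434.5 (plate C) for luminal cells. The sort was borne out by the summed basal and luminal markers. The summed level of 10 basal markers was 12605 CPM (counts scaled to the same total of 1e6 in every cell or population) in basal cells against 229 CPM in luminal ones. That of 10 luminal markers was 862 and 9316 CPM, and that of 10 mature luminal markers 155 and 7694 CPM. The 10 luminal progenitor markers were less apart, at 2093 and 5918 CPM, with medians per cell of 1532 and 1936 CPM. Single basal cells had as little as 2.77 CPM of basal markers. Transcripts of other cell types were looked for with lists of 20 genes each, and a cell was said to hold a list where at least 4 of the 20 genes reached 10 CPM. The endothelial list was held by 7 basal and 4 luminal cells, the fibroblast list by 20 and 10, the pericyte list by 4 and 6 and the immune list by 0 and 0. All but 1 of these 20 basal cells stood at 4 to 6 fibroblast genes, and 5 of the 20 genes (Col5a2, Dcn, Fbn1, Gsn and Mmp2) reached 10 CPM in at least 25% of basal cells. A stricter limit of 9 of 20 genes, chosen after the values were seen, left 6 basal cells with the endothelial list, all on plate B, and 1 with the fibroblast list. In luminal cells it left 4 with the endothelial, 6 with the fibroblast and 2 with the pericyte list. The lineage gate included CD31, the product of the endothelial gene Pecam1.

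Counts were summed over the cells of a population and given as CPM with exact 95% Poisson intervals, in brackets after each level. A summed level does not separate fewer cells with a gene from less RNA per cell, so the share of cells with a read is given beside it. A difference is the log2 ratio of luminal over basal CPM after adding 1 CPM to each, and a call is a ratio of at least 2-fold. Over all plates, 3 of the 10 genes (Bmp7, Tgfbr3 and Bmp4) were at least 2-fold higher in basal cells, where 18.3% of all 14772 genes tested were, and 2 (Inhbb and Tgfbr2) were at least 2-fold higher in luminal cells, where 28.4% were. With 10 genes, these counts lie near the background. The median ratio was 0.47 over the 10 genes and 0.18 over all genes. That all-gene median was 0.03 with TMM factors and 0.01 with median-of-ratios factors, and relative to 0.18 the ratio of Tgfbr1 passed 2-fold towards basal cells (-1.16), that of Tgfbr2 stayed past it (1.21), and those of Tgfb1, Tgfb2, Tgfb3 and Bmpr1a lay between 0.23 and 0.65. On plate B alone 3 genes were called towards basal cells (17.2% of all genes) and 4 towards luminal cells (41.4%). Between basal plate A and luminal plate C the numbers were 4 (20.1%) and 3 (27.4%). The 5 genes called over all plates were called in the same direction on plate B, Bmp4 through cells with endothelial markers, 3 towards basal (10.2% of all genes) and 2 towards luminal cells (21.5%).

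**Figure D1:**
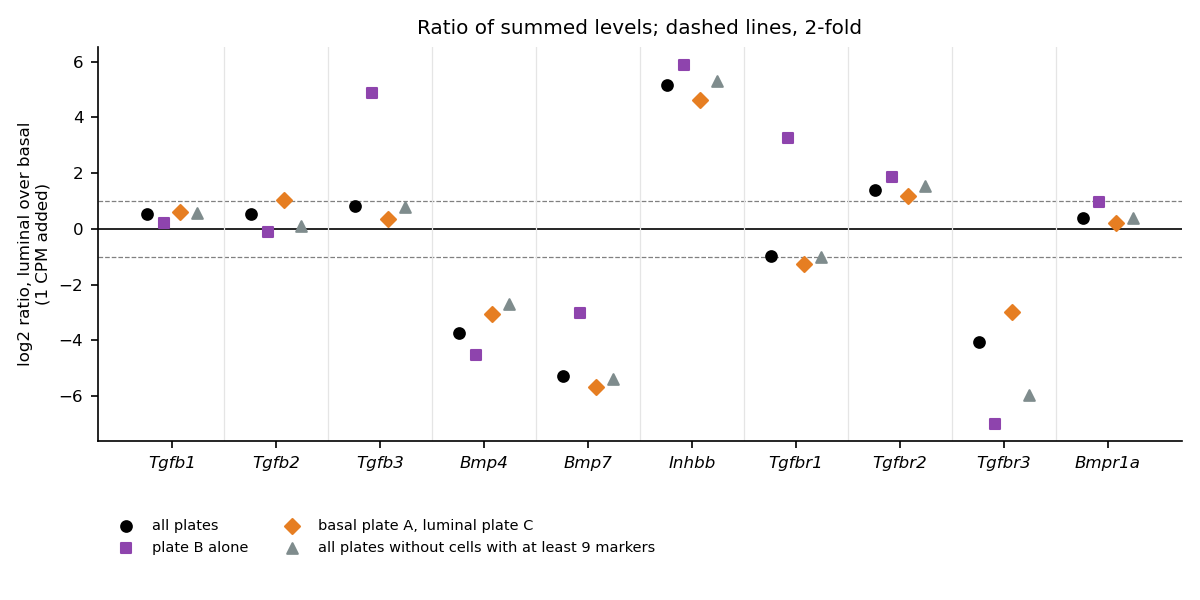
Log2 ratio of luminal over basal summed CPM (1 CPM added) for each of the 10 genes, over all plates (circles), on plate B alone (squares), for basal plate A against luminal plate C (diamonds) and without cells holding at least 9 of 20 markers of another cell type (triangles). Inhbb and Tgfbr2 lie above the upper 2-fold line and Bmp4, Bmp7 and Tgfbr3 below the lower one in every set of cells shown, whereas Tgfbr1 lies at -0.98 over all plates and at 3.25 on plate B.

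The sequence just upstream of the start is shown for the called genes that had a window in the RefSeq promoter table (build GRCm38.p6, the assembly of mm10). Each run is the 250 bases before the annotated start, read 5′ to 3′ on the gene's strand. Capitals mark every match, on either strand, to the letters of 5 elements. The GC box was searched for as GGGCGG. For the TATA element the letters were TATAAA. The element bound by nuclear factor Y was written CCAAT. A SMAD-binding element was written CAGAC, and an E-box CACGTG. The first, of the luminal ligand gene Inhbb, is chr1:119422249-119422498 on the minus strand. The next, of the luminal receptor gene Tgfbr2, is chr9:116175364-116175613 on the minus strand. The last, of the ligand gene Bmp4, is chr14:46390670-46390919 on the minus strand.
Inhbb: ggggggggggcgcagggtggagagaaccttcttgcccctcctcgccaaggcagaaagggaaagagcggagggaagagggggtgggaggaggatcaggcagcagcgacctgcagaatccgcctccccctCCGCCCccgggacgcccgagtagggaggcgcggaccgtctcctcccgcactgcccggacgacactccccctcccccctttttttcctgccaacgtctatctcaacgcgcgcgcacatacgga
Tgfbr2: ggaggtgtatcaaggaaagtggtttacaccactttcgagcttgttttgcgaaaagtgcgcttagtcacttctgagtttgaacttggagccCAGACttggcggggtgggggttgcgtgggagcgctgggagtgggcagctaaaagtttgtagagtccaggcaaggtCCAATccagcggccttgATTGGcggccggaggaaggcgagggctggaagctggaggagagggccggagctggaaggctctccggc
Bmp4: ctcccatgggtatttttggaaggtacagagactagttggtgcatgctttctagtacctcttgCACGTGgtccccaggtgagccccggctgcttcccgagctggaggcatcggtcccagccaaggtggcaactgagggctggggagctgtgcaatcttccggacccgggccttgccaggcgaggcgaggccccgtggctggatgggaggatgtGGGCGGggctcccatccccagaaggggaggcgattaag
Inhbb held 1 GC box at 68% GC, Tgfbr2 held 2 matches to CCAAT and 1 CAGAC at 58.4% GC, and Bmp4 held 1 GC box and 1 E-box at 63.2% GC. Over all 32851 windows of this length the median GC content was 52.4%, and the share with a match was 32.7% for the GC box, 12.4% for the TATA element, 33.9% for CCAAT, 42.2% for the SMAD-binding element and 6.02% for the E-box. Of the 10 genes 7 had a window. The matches are a description of these letters only. Positions of genes below are those of RefSeq on the same build.

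Inhbb (Entrez 16324, chromosome 1, 119415463 to 119422248) encodes the beta B subunit shared by activin B and inhibin B. Of the 6 ligand genes it was the only one called towards luminal cells over all plates. Per cell, luminal values ran from 0 through a median of 1.83 to 734 CPM, and basal values from 0 through 0 to 1.56 CPM. The basal maximum was thus under the luminal median over all plates. By plate, the luminal median was 3.03 CPM on plate B and 0.695 CPM on plate C, the latter under the basal maximum. Summed over luminal cells the level was 36.9 CPM (35.8 to 38.0), and over basal cells 0.059 CPM (0.019 to 0.139, 5 reads in 4 cells), a log2 ratio of 5.16 and a count ratio of 621 (266 to 1913). On plate B, where basal cells had 2 reads, luminal cells had 62.4 CPM and a count ratio of 874 (242 to 7220). At 50000 reads it was detected in 27 of 76 luminal cells (35.5%, exact Clopper-Pearson 95% interval 24.9 to 47.3) and 1 of 72 basal cells (1.39%, 0.035 to 7.50). Luminal cell 11 held 27.1% of the luminal reads, and the ratio was 4.75 without it.

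Bmp7 (Entrez 12162, chromosome 2, 172868012 to 172940321) showed the opposite pattern. It encodes a BMP ligand. Per cell, basal values ran from 0 through a median of 0 to 845 CPM and luminal values from 0 through 0 to 11.2 CPM. Summed levels were 45.5 CPM in basal cells (44.0 to 46.9) against 0.193 CPM in luminal ones (0.121 to 0.292), a log2 ratio of -5.28, and 21 of the 22 luminal reads lay in 1 cell. It was carried by a part of the basal cells: 14 of 72 had a read at 50000 reads (19.4%, 11.1 to 30.5) and 28 of 72 at full depth, and 3 cells were enough to reach 50% of the reads. The level was 64.7 CPM in basal cells of plate A and 7.03 CPM in those of plate B. On plate B luminal cells had 0 reads, so basal cells were at least 86.4-fold higher there against a limit of 3 counts. That limit covers the counting of reads only and not the spread between cells, so the fold is no bound on the difference between populations. Without cells holding at least 9 markers of another cell type the ratio was -5.37.

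Bmp4 (Entrez 12159, chromosome 14, 46383525 to 46390669), also a BMP ligand gene, had a ratio of -3.73 that rested on very few cells. Per cell, basal values ran from 0 through a median of 0 to 600 CPM and luminal values from 0 through 0 to 1.01 CPM. Summed levels were 12.8 CPM in basal cells (12.1 to 13.6) against 0.044 CPM in luminal ones (0.014 to 0.102, 5 reads). Basal cell 80, on plate B, held 59.7% of the basal reads (ratio -2.58 without it) and cell 21, on plate A, another 32.1%. Cell 80 had 13 of 20 endothelial markers at 10 CPM and 2310 CPM of basal markers. Cell 21 had 0 endothelial and 4 fibroblast markers and 12805 CPM of basal markers. The 25 basal cells holding at least 4 markers of another type had 99.4% of the reads and a level of 38.6 CPM, against 0.106 CPM in the other 47. On plate B the 6 cells with at least 9 endothelial markers held 647 of 648 reads, and the other 16 basal cells had 1 read. The endothelial list summed to 990 CPM in basal cells (0 to 23890 per cell) and to 610 CPM in luminal ones (0 to 9986), with none of its 20 genes at 0 in either. The part of the fibroblast list in the level of cell 21 was not tested. Without the cells holding at least 9 markers the ratio was -2.69. At 50000 reads Bmp4 was detected in 5 of 72 basal cells (6.94%, 2.29 to 15.5) and in 0 of 76 luminal ones, where the limit of 3 counts allows up to 3.95%.

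None of the TGF-beta ligand genes reached 2-fold in the sums over all plates with 1 CPM added, although Tgfb3 did as a mean of CPM per cell (1.08) and without cells holding a list of another cell type (1.45), and Tgfb1 did with 0.1 CPM added (1.36). Tgfb3 (Entrez 21809, chromosome 12, 86056743 to 86079041) ran from 0 through a median of 0 to 638 CPM in basal and from 0 through 0 to 848 CPM in luminal cells, so the ranges overlapped. Its summed levels were 19.8 CPM in basal cells (18.8 to 20.7) against 36.0 CPM in luminal ones (34.9 to 37.1), a ratio of 0.83. Nearly all basal reads lay on plate A (29.6 CPM). Basal cell 53 held 44.2% of them, and without it the ratio was 1.60, past 2-fold. On plate B there were 2 basal reads in 22 cells (0.071 CPM) against 30.8 CPM in luminal cells, a count ratio of 431 (119 to 3561), whereas plate A against plate C gave 0.37 on the log2 scale. It was detected at 50000 reads in 8 of 72 basal (11.1%, 4.92 to 20.7) and 17 of 76 luminal cells (22.4%, 13.6 to 33.4), and these intervals overlap. Luminal cell 63, the cell with the second most luminal Tgfb3 reads (20.0%), carried 9984 CPM of basal markers, the highest of the luminal cells.

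Tgfb2 (Entrez 21808, chromosome 1, 186622787 to 186709697) ran from 0 through 0 to 1267 CPM in basal and from 0 through 0 to 694 CPM in luminal cells. Summed levels were 34.7 CPM (33.4 to 36.0) and 50.5 CPM (49.2 to 51.9), a ratio of 0.53 that was 1.59 without basal cell 79, which held 54.1% of the basal reads. On plate B, where that cell lay, the ratio was -0.12, and it was 1.03 for plate A against plate C. Shares at 50000 reads were 13.9% (6.87 to 24.1) and 17.1% (9.44 to 27.5). Of the luminal Tgfb2 reads 26.0% lay in the 6 cells with at least 9 fibroblast markers. Without the cells holding at least 9 markers of any such list the ratio was 0.11. Tgfb1 (Entrez 21803, chromosome 7, 25687002 to 25705077) was near the limit of detection in both populations. It had 0.25 CPM in basal cells (0.155 to 0.382, 21 reads, 0 to 85.8 CPM per cell) against 0.80 CPM in luminal ones (0.642 to 0.979, 91 reads, 0 to 65.3 CPM per cell), and 1 cell of each population had a read at 50000 reads. Luminal cell 30 held 79.1% of the luminal reads, and the ratio of 0.52 was -0.10 without it and -0.24 as a mean of CPM per cell, so no direction was read.

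**Figure D2:**
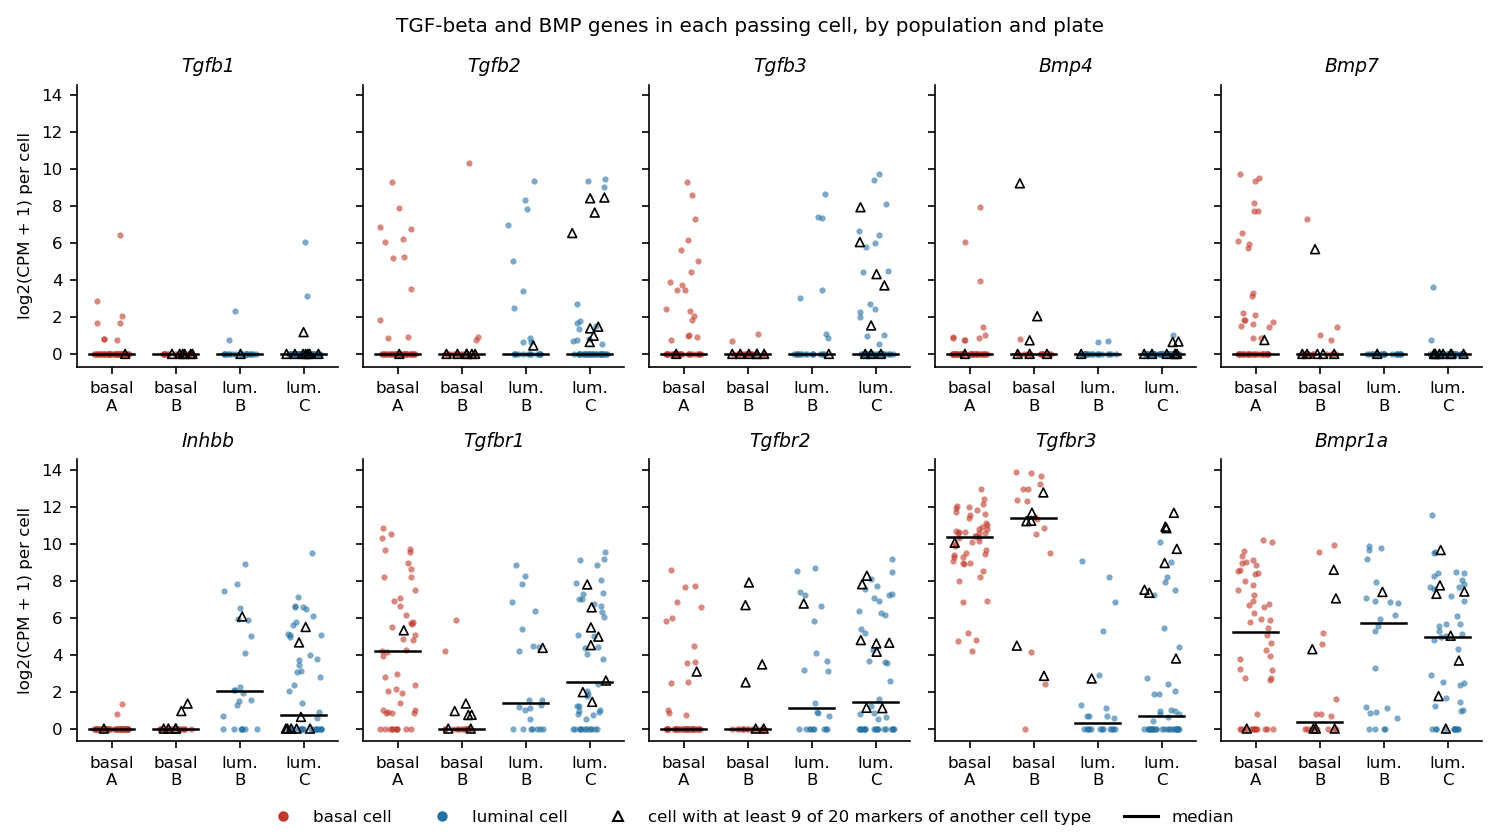
Level of each of the 10 genes in every passing cell, as log2(CPM + 1), with basal cells in red (plates A, B) and luminal cells in blue (plates B, C), with a black bar at the median and open triangles for cells with at least 9 of 20 markers of another cell type. Tgfbr3 is high in nearly every basal cell, the other genes are at 0 in many cells of both populations, and the highest Bmp4 point and several of the highest luminal Tgfbr3 points are triangles.

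Tgfbr3 (Entrez 21814, chromosome 5, 107106567 to 107289629) encodes betaglycan, the co-receptor that presents TGF-beta ligands to their signalling receptors and also binds inhibins. It stood out among the 10 genes by level and by detection in basal cells. Basal values ran from 0 through a median of 1531 to 15086 CPM, and luminal values from 0 through 0.52 to 3269 CPM. The lower quartile of basal cells (594 CPM) lay above the upper quartile of luminal cells (14.7 CPM), although the ranges overlapped. Summed levels were 2742 CPM in basal cells (2731 to 2753) against 165 CPM in luminal ones (162 to 167), a log2 ratio of -4.05. At full depth it was detected in 71 of 72 basal and 40 of 76 luminal cells (52.6%, 40.8 to 64.2). At 50000 reads it was detected in 69 of 72 basal (95.8%, 88.3 to 99.1) and 19 of 76 luminal cells (25.0%, 15.8 to 36.3). Basal levels were 1799 CPM on plate A and 4631 CPM on plate B, luminal levels 35.5 CPM on plate B and 226 CPM on plate C, and the ratio was -6.99 on plate B and -2.98 for plate A against plate C.

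The luminal level of Tgfbr3 was concentrated in cells with fibroblast transcripts. The 6 luminal cells with at least 9 fibroblast markers held 73.2% of the luminal reads at 1232 CPM, and luminal cell 54, with 18 of the 20 markers and 232 CPM of luminal markers, alone held 30.9%. The 67 luminal cells with fewer than 9 markers of every list had 43.6 CPM and the 65 such basal cells 2788 CPM, a ratio of -5.97. At the limit of 4 markers the ratio was -6.63. The fibroblast list summed to 2743 CPM over luminal cells (0 to 51112 per cell) and to 1346 CPM in basal cells (0.693 to 39634), with Fap at 0 in basal cells. Basal cells had Tgfbr3 with or without such transcripts: it was found in 25 of the 25 cells holding a list and in 46 of the other 47.

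Tgfbr2 (Entrez 21813, chromosome 9, 116087695 to 116175363) encodes the type II receptor of TGF-beta and was higher in luminal cells. Luminal values ran from 0 through a median of 1.48 to 574 CPM and basal values from 0 through 0 to 381 CPM. Summed levels were 60.2 CPM in luminal (58.8 to 61.7) and 22.3 CPM in basal cells (21.3 to 23.3), a log2 ratio of 1.39, with 1.86 on plate B and 1.19 for plate A against plate C. It was detected in 30 of 76 luminal cells (39.5%, 28.4 to 51.4) and 13 of 72 basal cells (18.1%, 9.98 to 28.9) at 50000 reads, and the intervals overlap slightly. On plate B all 475 basal reads lay in the 6 cells with at least 9 endothelial markers (75.0 CPM), and the other 16 basal cells had 0 reads. Against a limit of 3 counts in those 16 cells, the level in the luminal cells of that plate was at least 464-fold higher. That limit covers the counting of reads only. Basal cell 35, on plate A, alone held 524 reads, so the fold is no bound on the difference between populations. Over both plates the 25 basal cells holding at least 4 markers of another type had 77.2% of the basal reads, the other 47 had 7.60 CPM, and the ratio without cells holding a list was 2.53.

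Tgfbr1 (Entrez 21812, chromosome 4, 47353222 to 47414926), the type I receptor of TGF-beta, went in opposite directions on different plates. Basal values ran from 0 through a median of 1.58 to 1868 CPM and luminal values from 0 through 3.01 to 746 CPM. Summed levels were 140 CPM in basal cells (138 to 143) against 70.5 CPM in luminal ones (69.0 to 72.0), and the ratio of -0.98 fell just short of 2-fold by CPM and passed it with TMM (-1.21) and median-of-ratios factors (-1.24). Basal cells had 209 CPM on plate A and 2.96 CPM on plate B, while luminal cells had 36.8 CPM on plate B and 86.6 CPM on plate C. On plate B alone the ratio was therefore 3.25, and it was -1.26 for plate A against plate C. Basal cell 59 held 27.5% of the basal reads, and the ratio was -0.55 without it and -0.45 without cells holding a list of another cell type. At 50000 reads its basal cells numbered 26 of 50 (plate A) and 1 of 22 (plate B), and its luminal cells 10 of 24 (plate B) and 25 of 52 (plate C). Within basal cells, 4 of the 10 genes (Tgfb3, Bmp7, Tgfbr1 and Bmpr1a) were at least 2-fold higher on plate A than on plate B, where 41.7% of all genes were, and 3 (Tgfb2, Bmp4 and Tgfbr3) were at least 2-fold higher on plate B, where 13.6% were. Plate and mouse cannot be told apart within basal cells.

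Bmpr1a (Entrez 12166, chromosome 14, 34411061 to 34503336), a type I BMP receptor, was found widely in both. Basal values ran from 0 through a median of 13.3 to 1180 CPM and luminal values from 0 through 32.4 to 3022 CPM. Summed levels were 161 CPM (158 to 163) and 213 CPM (211 to 216), a ratio of 0.41. Shares at 50000 reads were 50.0% (38.0 to 62.0) and 52.6% (40.8 to 64.2). Luminal cell 84 held 33.2% of the luminal reads, and without it the ratio was -0.14, so no direction was read.

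**Figure D3:**
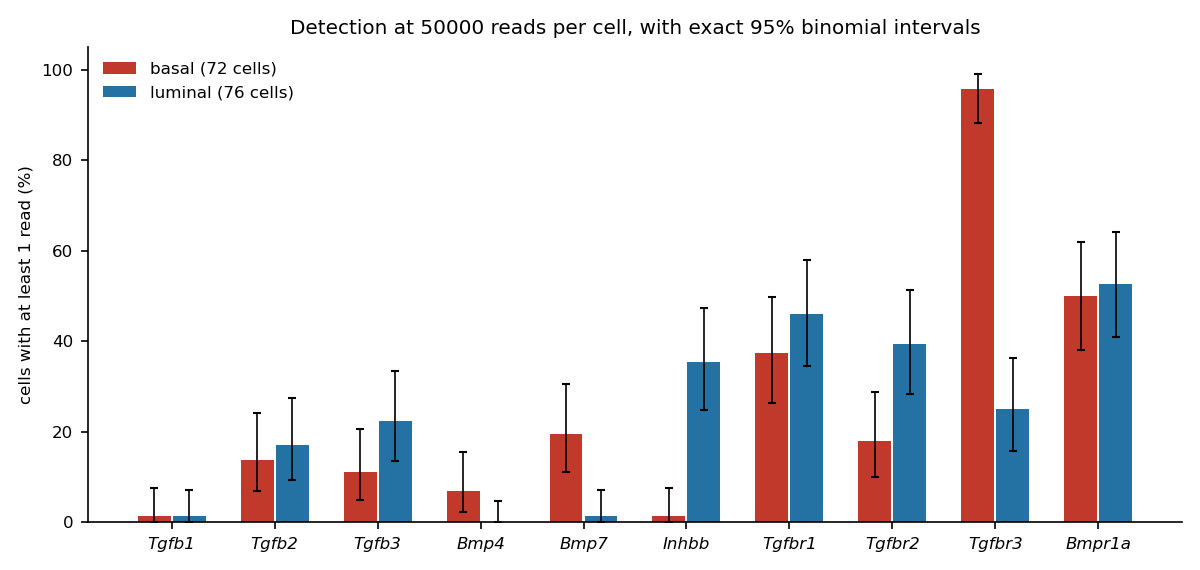
Share of passing basal (red, 72) and luminal (blue, 76) cells with at least 1 read of each gene after every cell was thinned to 50000 reads, with exact 95% binomial intervals as bars. The intervals lie apart for Bmp7 (19.4% and 1.32%), Inhbb (1.39% and 35.5%) and Tgfbr3 (95.8% and 25.0%).

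At equal depth, 4 of the 10 genes were detected in a higher share of basal cells (31.8% of all genes were) and 6 in a higher share of luminal cells (65.8%). For Tgfb2, Tgfbr1 and Bmpr1a the order of the shares was the other way round for basal plate A against luminal plate C, and Tgfb1 was found in 1 cell of each population. Intervals lay apart for 2 genes towards basal cells, Bmp7 and Tgfbr3 (2.9% of all genes), and for 1 towards luminal cells, Inhbb (9.07%). These intervals cover the counting of cells only, since cells are not replicates and each population is 1 sample.

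Ordered by CPM per kilobase (RPKM, which takes out gene length), Tgfbr3 led in basal cells at 453 RPKM, followed by Bmpr1a (30.1), Tgfbr1 (24.8), Bmp7 (23.1), Tgfb2 (7.34), Bmp4 (6.43), Tgfb3 (5.84), Tgfbr2 (4.66), Tgfb1 (0.119) and Inhbb (0.014). In luminal cells the order by RPKM was Bmpr1a (40.0), Tgfbr3 (27.2), Tgfbr2 (12.6), Tgfbr1 (12.4), Tgfb2 (10.7), Tgfb3 (10.6), Inhbb (8.67), Tgfb1 (0.381), Bmp7 (0.098) and Bmp4 (0.022). With the range between the 2 plates of a population as the only spread at hand, neighbours in this order were separate at Tgfbr3 over Bmpr1a and Tgfbr2 over Tgfb1 in basal cells and at Inhbb over Tgfb1 in luminal cells. At all other places the plate ranges of neighbours overlapped.

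At 50000 reads a cell of either population had a read of 2 of the 10 genes in the median, with a range of 0 to 7 in basal and 0 to 6 in luminal cells. At least 1 ligand gene was detected in 27 of 72 basal (37.5%) and 42 of 76 luminal cells (55.3%), and at least 1 receptor gene in 69 and 64. On plate B the ligand shares were 4 of 22 basal and 11 of 24 luminal cells. TGF-beta signals through Tgfbr1 and Tgfbr2 together. Both were detected in 8 of 72 basal cells (11.1%, 4.92 to 20.7), where the product of the single shares is 6.77%, and in 13 of 76 luminal cells (17.1%, 9.44 to 27.5), where it is 18.2%. The products lie within these intervals. At full depth the numbers were 16 of 72 (22.2%) and 38 of 76 (50.0%). Every basal cell with Tgfbr1 or Tgfbr2 at 50000 reads also had Tgfbr3 (27 of 27 and 13 of 13), which 95.8% of basal cells had. Among luminal cells, 8 of the 35 with Tgfbr1 and 6 of the 30 with Tgfbr2 had it. Bmp4 and Bmp7 were found together in 0 of 72 basal cells at that depth, where the product of their shares is 1.35%, and in 5 at full depth.

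Luminal cells were also split by how many of 10 mature luminal and 10 luminal progenitor markers each had at 50000 reads. More mature markers were found in 53 cells and more progenitor markers in 19, with 4 equal, and 6 cells lay 1 marker from the limit. Tgfb2 stood at 22.1 CPM in the mature and 132 CPM in the progenitor set, with overlapping shares of 9.43% (3.14 to 20.7) and 31.6% (12.6 to 56.6). Where the marker counts differed by at least 3, it was detected in 2 of 41 mature cells (4.88%, 0.60 to 16.5) and 5 of 10 progenitor cells (50%, 18.7 to 81.3). These intervals lie apart, which they did for no other of the 10 genes in this split, but they count cells, which are not replicates. Plates were uneven in this split, with 14 of the 41 mature and 1 of the 10 progenitor cells on plate B. The part of the plate was not tested. Inhbb stood at 44.7 and 19.8 CPM, with overlapping shares of 39.6% (26.5 to 54.0) and 26.3% (9.15 to 51.2). At a difference of at least 3 markers its shares were 36.6% (22.1 to 53.1) and 30.0% (6.67 to 65.2). Tgfbr3 stood at 74.6 and 228 CPM, with overlapping shares of 17.0% (8.07 to 29.8) and 36.8% (16.3 to 61.6). At a difference of at least 3 markers its shares were 14.6% (5.57 to 29.2) and 30.0% (6.67 to 65.2). The 4 equal cells had 1225 CPM and 33.1% of the luminal Tgfbr3 reads. The 6 cells with at least 9 fibroblast markers hold 73.2% of the luminal Tgfbr3 reads and 26.0% of the luminal Tgfb2 reads. Their part in these splits was not tested.

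The rest of the pathway was read from a list of 103 genes, of which 81 passed the filter on low values. Of these, 25 were at least 2-fold higher in basal cells (18.3% of all genes) and 17 in luminal cells (28.4%), and 39 were under 2-fold. Their median ratio was 0.01 against 0.18 for all genes. Of the 25, 18 were also called on plate B, as were 9 of the 17. Called in the same direction over all plates and on plate B were 10.2% of all genes towards basal and 21.5% towards luminal cells. The list holds 3 genes of the fibroblast list (Col1a1, Dcn and Fbn1).

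Among the other ligands, 8 of the 18 listed passed the filter on low values. Of these 8, 5 were called towards luminal (28.4% of all genes) and 0 towards basal cells (18.3%). The filter could be passed through 1 population alone, as by Bmp2, which had a basal maximum of 0.693 CPM. Inha had reads in only 2 basal cells, and Bmp3 had 6 basal reads. These counts are thus partly set by the filter and were not read as a lean of the ligands. Bmp3, a BMP that antagonises other members, had 43.4 CPM in luminal and 0.071 CPM in basal cells (ratio 5.37), and luminal cell 73 held 56.2% of its luminal reads (ratio 4.25 without it). At 50000 reads Bmp3 was detected in 9 of the 53 luminal cells nearer the mature list (17.0%, 8.07 to 29.8). It was detected in 1 of the 19 nearer the progenitor list (5.26%, 0.13 to 26.0), and these intervals overlap. The other ligands called, Bmp2, Bmp8a, Inha and Inhba, were under 2-fold on plate B. Luminal cell 54, with 18 of 20 fibroblast markers, held 48.1% of the luminal Bmp2 reads (ratio 1.78 without it). Luminal cell 33, with 16 of these markers, held 70.7% of the luminal Inhba reads (ratio 0.78 without it). Among receptors, 4 of 12 were called towards basal (18.3% of all genes) and 2 towards luminal cells (28.4%). Acvr2a, a type II activin receptor, stood at 104 CPM in basal against 13.1 CPM in luminal cells (ratio -2.90), with 61.0% of its basal reads in cell 45 and a ratio of -1.58 without that cell. Bmpr1b, a type I BMP receptor, had 2.44 and 12.8 CPM (ratio 2.01, and 4.47 on plate B). The receptor genes Acvr1 and Bmpr2 changed direction on plate B, from -1.20 to 3.45 and from -1.41 to 4.95, as Tgfbr1 did.

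**Figure D4:**
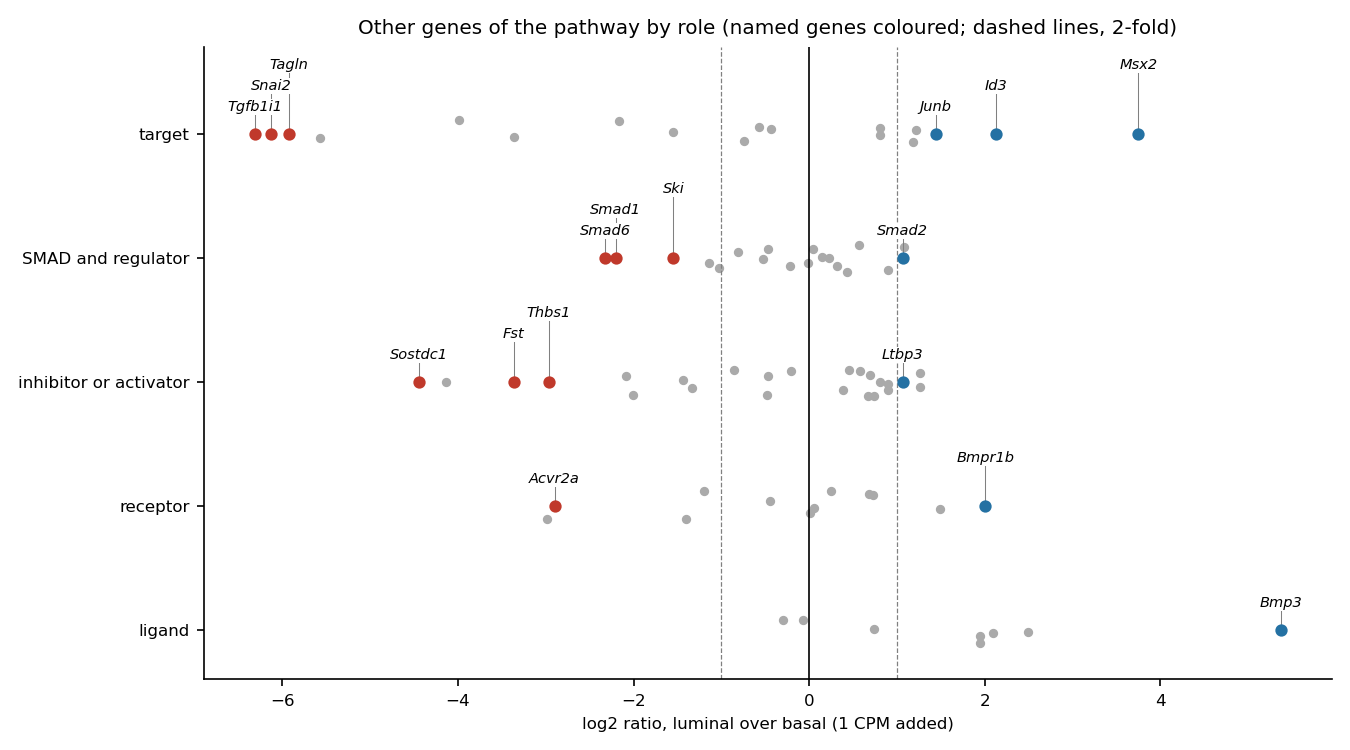
Log2 ratio of luminal over basal summed CPM (1 CPM added) for the 81 tested genes of the pathway list, by role, with the 17 named genes coloured red (basal) or blue (luminal) and the others grey. Of the 24 inhibitors and activators 8 lie past 2-fold towards basal cells (18.3% of all genes do) and 3 towards luminal cells (28.4%). None of the 8 other ligand genes tested lies past 2-fold towards basal cells, which is partly set by the filter on low values.

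Of 24 extracellular inhibitors and activators, 8 were called towards basal (18.3% of all genes) and 3 towards luminal cells (28.4%). Fst, follistatin, which binds activins, stood at 965 CPM in basal against 92.7 CPM in luminal cells (ratio -3.37) and was found in 52 of 72 basal and 19 of 76 luminal cells at 50000 reads. Sostdc1, a secreted BMP and Wnt inhibitor, had 141 and 5.52 CPM (ratio -4.44), and 99.7% of its luminal reads lay in cell 63, the luminal cell with basal markers. Thbs1, thrombospondin, an activator of latent TGF-beta, had 1542 and 196 CPM (ratio -2.97). It was found in 67 of 72 basal and 33 of 76 luminal cells at 50000 reads. Ltbp3, which binds latent TGF-beta, was higher in luminal cells (28.6 and 61.2 CPM, ratio 1.07, and 0.82 without luminal cell 46).

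Of 19 SMADs and their regulators, 5 were called towards basal (18.3% of all genes) and 2 towards luminal cells (28.4%). Smad1, which carries BMP signals, had 255 and 54.7 CPM (ratio -2.20), but basal cell 92 held 59.1% of its basal reads and the ratio was -0.95 without it. Smad6, an inhibitory SMAD, had 10.2 and 1.23 CPM (ratio -2.33, and -1.31 without basal cell 1), and Ski, a co-repressor, 224 and 76.1 CPM (ratio -1.54, and just past the 2-fold limit with basal cell 92 left out). Smad2, which carries TGF-beta and activin signals, had 24.6 and 52.7 CPM (ratio 1.07, and 0.66 without luminal cell 52). Of 18 target genes, 8 were called towards basal (18.3% of all genes) and 5 towards luminal cells (28.4%). The basal ones were led by Tgfb1i1 (129 and 0.64 CPM, ratio -6.31), Snai2, a repressor of epithelial genes (138 and 0.98 CPM, -6.13), and the smooth muscle gene Tagln (3956 and 63.9 CPM, -5.93). The luminal ones were led by the homeobox gene Msx2 (0.036 and 13.0 CPM, 3.75), Id3 (101 and 446 CPM, 2.13) and Junb (73.3 and 201 CPM, 1.44). Tagln is also a contractile gene of the basal layer.

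Genes whose level followed a member over single cells were looked for within its higher population, as a description with no test. Each r named is among the 3 highest over all genes detected in at least 20 of the same cells. Such a choice raises r by itself. Pearson's r of log2(CPM + 1) reached 0.5 for Fmnl3 (0.62), Gabpa (0.52) and Tle4 (0.50) with Tgfb3 over 76 luminal cells, for Cxcl16 (0.56) and Sugp2 (0.51) with Tgfb2 over the same cells, for Zkscan3 (0.57), Adamts7 (0.55) and Gm8069 (0.50) with Bmp7 over 72 basal cells, and for Ints11 (0.57), Chil1 (0.54) and Ccnyl1 (0.54) with Tgfbr1 over the same cells. No gene reached 0.5 with Inhbb, Tgfbr2, Tgfbr3 or Bmpr1a, where the highest r were 0.48, 0.49, 0.48 and 0.48. Tgfb1 and Bmp4 were detected in fewer than 20 cells. The cells of a set came from different plates and differed in depth, and many values are at 0. In basal cells Bmp7 stood at 64.7 CPM on plate A and 7.03 CPM on plate B, and Tgfbr1 at 209 and 2.96 CPM. The part of plate and depth in these values of r was not tested.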

How the data were processed

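Freshly sorted cells were captured on the Fluidigm C1 and Nextera XT libraries were sequenced on an Illumina HiSeq. The authors aligned read pairs to mm10 with Subread, assigned them with featureCounts on the RefSeq genes that come with it, and deposited raw counts per gene and cell, with gene lengths. Versions and strand setting are not given in the sources used here, so reads of overlapping genes cannot be told apart. A table of the whole series, with 186 columns of cells, was not used.

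From the counts, 1904 identifiers without a symbol in RefSeq (1.94% of counts), 15 mitochondrial and 125 ribosomal protein genes were left out. Basal cells needed 50000 reads and 1000 genes, and luminal ones 100000 and 1500, as in the study. A gene was tested when 3 or more cells had 1 CPM of it (14772). No 2 cells were alike within sampling noise (smallest chi-square per gene 20.0 in basal and 40.8 in luminal cells). Doublets were not called, since single cells had been seen in the chambers under the microscope. Counts were summed per population, and 1 CPM was added before the log2 ratio. Detection used cells thinned to 50000 reads. Intervals are exact at 95% and cover only the counting of reads (levels) or of cells (shares). The libraries carry no molecular identifiers, so the intervals of levels count reads and not molecules. The ratio step was tested on simulated luminal over basal counts for 14772 genes: of 200 genes changed by 2 on the log2 scale, 68% came back within 0.2, and 100% once the added CPM was counted in.

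The 10 genes and all lists were chosen with earlier results of these data known. Besides the 10, a pathway gene was named by rule: in each role and direction, the 3 largest ratios were taken from genes that reached 10 CPM and 25% of cells (full depth) in the higher population and were called alike over all plates and on plate B. Genes named outside this rule (Bmp2, Bmp8a, Inha, Inhba, Acvr1 and Bmpr2) were chosen after their values were seen. Genes of like pattern were the 3 of highest r, named from 0.5. Alternatives were other cell and gene filters, scaling (TMM factors of edgeR 4.0.16 and median-of-ratios factors), added CPM, plates, thinning depth and seed, a limit of 5 reads, and leaving out cells. Python 3.11.15, numpy 2.4.6, scipy 1.17.1, pandas 2.3.3 and R 4.3.3 were used.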

Additional observations from a re-analysis of the deposited data

Results flagged for a closer look

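The cells below the thresholds, 24 basal and 14 luminal, enter no comparison above. A gene was picked out there when its level was above the 3 counts that a count of 0 allows, 11.3 CPM in the basal and 7.27 CPM in the luminal cells. In the basal cells Tgfbr3 was at 308 CPM, with 82 reads spread over all 24 cells. Tgfb2 was at 196 CPM, all 52 reads in basal cell 22, and Tgfbr1 at 15.0 CPM, 4 reads in 4 cells. In the luminal cells Tgfbr2 was at 298 CPM (123 reads in 5 cells) and Tgfbr1 at 112 CPM (45 of 46 reads in luminal cell 57). Tgfb2 and Tgfbr3 were each at 9.70 CPM there, 4 reads. The causes were not tested.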

How the results depend on the processing

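No paired analysis was possible because each population is 1 sample, the labels' numbers name cells and not mice, and no test was run. Leaving out cells with at least 9 markers of another cell type was chosen after seeing the data. The 3 and 2 genes called towards basal and luminal cells were 2 to 4 and 2 to 4 over the alternatives. With plate B alone, 4 genes and 29 of the 81 pathway genes were called towards luminal cells (2 and 17 over all plates). With 10 CPM added, 5 pathway genes were called towards luminal cells. The larger added value lowers the ratio of low genes by construction. For basal plate A against luminal plate C, 7 genes were detected in a higher share of basal cells and 3 in a higher share of luminal cells (4 and 6 over all plates). The cause of the plate differences was not tested. The other counts stayed within 1.5 times of those reported.

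Of 139 ratios of single genes under an alternative, 54 stayed within the counting interval of the reported value and 85 left it. The sign differed in 5: Tgfb1 as a mean of CPM per cell (-0.24) and without luminal cell 30 (-0.10), Tgfb2 on plate B (-0.12), Tgfbr1 on plate B (3.25) and Bmpr1a without luminal cell 84 (-0.14). The ranges over the alternatives were 2.22 to 7.86 for Inhbb, -7.28 to -2.44 for Bmp7, -6.49 to -1.18 for Bmp4, -6.99 to -2.98 for Tgfbr3 and 1.12 to 2.53 for Tgfbr2. For the genes not called they were -0.24 to 1.36 for Tgfb1, -0.12 to 1.59 for Tgfb2, 0.37 to 4.89 for Tgfb3, -1.26 to 3.25 for Tgfbr1 and -0.14 to 0.98 for Bmpr1a. For Inhbb, Bmp7 and Bmp4 the outer values come from the added CPM, 0.1 or 10. Bmp4 gave no ratio without the cells holding other lists, since too few reads were left. The 47 basal cells that remained stood at 0.106 CPM of Bmp4 and the 64 luminal ones at 0.031, both under the 1 CPM added. On plate B without the 6 basal cells of at least 9 endothelial markers, its ratio was 0.01, from 1 basal and 2 luminal reads. The range given for Bmp4 includes neither of these sets, so it does not show a basal excess without cells holding such markers. Depth limits Tgfb1, luminal Bmp4 and Bmp7 and basal Inhbb, each with 5 to 91 reads over a population. Each population is 1 sample, and a single cell held up to 95.5% of the reads of one of the 10 genes in a population (luminal Bmp7).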
